A study of Mus musculus with 8 samples.

Results

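The Kruppel-like factors (KLFs) Klf2, Klf3, Klf4, Klf5, Klf6, Klf7, Klf9, Klf10, Klf12 and Klf13 were taken as every peak whose gene name in the N6-methyladenosine (m6A) peak lists was one of these 10 symbols. They held 67 of 38705 peaks, 10 of 9779 genes with a peak, and 30 of 21168 regions, where a region is a set of peaks from any library that overlap by at least 1 bp. The cells were mouse embryonic fibroblasts (MEFs) of wild-type C57BL/6 embryos, isolated 13.5 days after conception and used after 5 to 6 passages. Control cells were untreated in full medium, and starved cells were kept for 2 h in nutrient-deprived medium, which per the study's methods was a buffered salt solution. Each group had 2 replicates, and each replicate had an m6A immunoprecipitation (IP) library and an input library, giving 8 samples. Peaks had been called in each of the 4 IP libraries, named here control 1, control 2, starved 1 and starved 2. The study calls the replicates biological, and whether they came from separate embryos is not given in the sources used here.

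KLFs are transcription factors that bind GC-rich and CACCC-box sequences through C2H2 zinc fingers near the C terminus, while their N-terminal parts differ and recruit activators or repressors. Klf2, Klf4, Klf5, Klf6 and Klf7 belong to the subgroup known mainly for activation, Klf3 and Klf12 to the subgroup that binds the corepressor CtBP, and Klf9, Klf10 and Klf13 to the subgroup that binds the corepressor Sin3. Many KLF genes respond quickly to serum, stress or hormones, and several of their mRNAs are short-lived. m6A is written on mRNA by the METTL3-METTL14 complex, mainly within DRACH sequences of which GGAC is a common core, and reader proteins of the YTH family bind it and affect mRNA decay and translation. The comparison addressed was which KLF mRNAs carried m6A peaks in MEFs, where on the transcript, and whether the peaks or their enrichment differed after starvation.

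To show the sequence under the peaks, 24 bases around a GGAC were read from the mouse genome (GRCm38, the mm10 build) for each gene. Of each gene the region called in the most libraries was taken, and within it the GGAC nearest to the mean peak centre. All are given 5′ to 3′ on the transcript strand, with that GGAC in capitals. MeRIP-seq does not resolve single bases, so the methylated adenosine was not measured and these windows mark candidate sequence only.
Klf2, chr8:72321015-72321038, plus strand, 3′ UTR: ggacagagccGGACaagtgtggcc
Klf4, chr4:55527793-55527816, minus strand, 3′ UTR: gaacatgcccGGACttacaaaatg
Klf5, chr14:99301868-99301891, plus strand, coding: cggcagtaatGGACacccttaatg
Klf6, chr13:5864997-5865020, plus strand, coding: gtgagtcttcGGACagttcagagg
Klf7, chr1:64035001-64035024, minus strand, 3′ UTR: gttcttcttaGGACcagtgagatc
Klf3, chr5:64822944-64822967, plus strand, coding: gaaccacagaGGACtgactattac
Klf12, chr14:99871705-99871728, minus strand, 3′ UTR: attcgagtctGGACtggaaatgga
Klf9, chr19:23165987-23166010, plus strand, 3′ UTR: tccacgctcgGGACtaggacagag
Klf10, chr15:38295592-38295615, minus strand, 3′ UTR: tacacattggGGACtttgtttttg
Klf13, chr7:63890756-63890779, minus strand, 3′ UTR: aaggcacctgGGACccttcactat
The windows of Klf7, Klf12 and Klf13 lay 3.33, 6 and 9.75 nt from the mean peak centre, whereas that of Klf9 lay 352 nt away, close to the 3′ edge of its control peaks. The 10 transcripts held 170 GGAC in all, of which 99 lay under a region, and Klf13 alone held 39. The share of transcript length under a region was not computed, so the 99 cannot be set against it.

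All 10 genes had at least 1 peak, but they differed widely in how often. The libraries held 16, 19, 16 and 16 KLF peaks in the order control 1, control 2, starved 1 and starved 2, or 17.5 ± 2.12 in control and 16 ± 0 in starved cells (SD, n = 2). The difference of −1.5 peaks was smaller than the control SD, and it was 1 with the opposite sign when each list was shortened to the same number of its best-scoring peaks. Their lists held 10103, 9871, 9757 and 8974 peaks in the same order. Peaks were found on 10, 7, 8 and 9 of the genes in those libraries, and 7 of 10 genes had a peak in every library, against 29.2% of all genes with a peak in any library. Klf11 and Klf16, which are not among the 10, also had peaks but not in every library, so the count was 7 of 12 over all KLF genes with a peak in the lists. The exceptions were Klf3 with peaks in 2 libraries, Klf5 in 1 and Klf10 in 3.

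**Figure D1:**
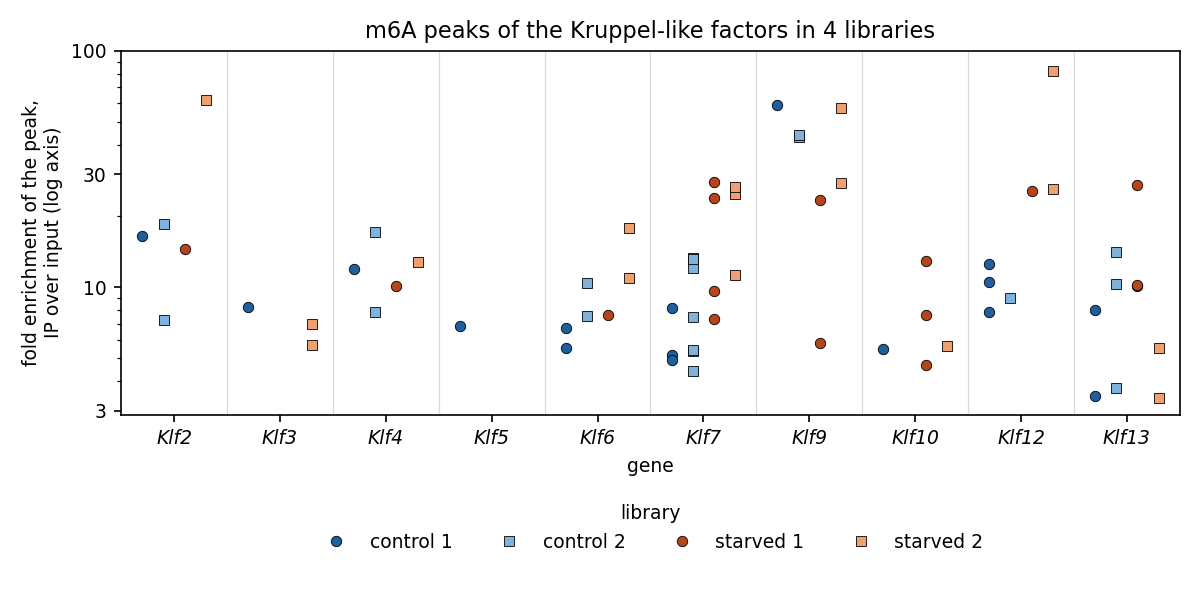
Each point is 1 m6A peak, placed by gene on the x axis and by its fold enrichment of IP over input on a logarithmic y axis, with control libraries in blue and starved libraries in orange. Klf9 peaks reach 58.8 in control 1, the highest single peak is that of Klf12 in starved 2 at 81.8, and Klf5 has 1 peak.

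Klf7, which is known from neuronal development, had the most peaks, 17 in 7 regions. Klf13 had 10 peaks in 4 regions, and Klf5, known from epithelial proliferation, had 1 peak with a fold enrichment of 6.82 in control 1. That Klf5 peak had a score of 81.83 and a false discovery rate, as given by the authors, of 70.2%. Whatever is said of every gene rests for Klf5 on this weak call. Over the 10 genes the number of regions went with transcript length (Pearson r = 0.87, Spearman rho = 0.83) and in the same degree with 3′ UTR length (r = 0.87, rho = 0.83). These are descriptions over 10 genes measured in the same 4 libraries. The transcripts ran from 1847 nt for Klf2 to 7662 nt for Klf7. Per length, Klf2 had the densest regions, at 1.08 per kb, and Klf5 the sparsest, at 0.298 per kb. The files give neither reads nor RNA level, so abundance and depth could not be set beside these counts.

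Fold enrichment, the authors' ratio of IP to local input background, ranged from 3.39 to 81.8 over the KLF peaks with a median of 10.2. The KLF medians were 7.94, 10.4, 10.2 and 15.4 in control 1, control 2, starved 1 and starved 2, where all peaks had medians of 12.2, 12.3, 14.6 and 14.7. The KLF median thus lay below that of all peaks in 3 libraries and above it in starved 2. It was 9.15 ± 1.71 in control and 12.8 ± 3.67 in starved cells (SD, n = 2), a difference smaller than the starved SD, while the median over all peaks was 12.2 ± 0.0424 and 14.6 ± 0.0778. Of the KLF peaks 8 had a score of exactly 3100, a value at which many scores of the lists pile up (4 of Klf9, 2 of Klf4 and 1 each of Klf2 and Klf13), and 1, of Klf4 in control 2, lay above it. The authors' false discovery rate spanned 7.52% to 71.6%, and 34 of 67 peaks were under 20%. Its medians in the same order were 23.7%, 19.1%, 20.4% and 11.2% for KLF peaks, against 21.2%, 18.9%, 15.9% and 15.8% for all peaks.

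Placed on the longest coding transcript of each gene, pooled KLF peaks lay mostly in 3′ UTRs, which was not so of each gene. Their centres fell in the 3′ UTR for 39 peaks (58.2%, against 36.4% of all peaks), in the coding sequence for 21 (31.3%, against 46.1%), within 100 nt of the stop codon for 3 (4.48%, against 12.7%) and in the 5′ UTR for 4 (5.97%, against 4.85%). Klf7 and Klf13, which have the longest 3′ UTRs, supplied 20 of these 39 peaks, and the other 8 genes had 19 of 40 peaks (47.5%) there, with 0 for Klf3 and Klf5 and 1 of 7 for Klf6. Control libraries had a 3′ UTR share of 59.7% ± 4.89 and starved libraries of 56.2% ± 8.84 (SD, n = 2), which differed by less than the spread. All 3 peaks centred within 100 nt of the stop codon came from starved cells, 1 from starved 1 and 2 from starved 2. They made up 6.25% and 12.5% of the KLF peaks there, where all peaks had 12.3% and 12.6%. Control 1 and control 2 had 0 such KLF peaks, where all peaks had 13.2% and 12.5%. With so few peaks this contrast was not tested. By subgroup, 54.3% of 35 peaks of the activators, 40.0% of 10 peaks of the CtBP-binding pair and 72.7% of 22 peaks of the Sin3-binding genes were centred in the 3′ UTR. With a window of 200 nt the stop codon share was 10.45%. GGAC occurred within 100 nt of the centre of 52 KLF peaks (77.6%, against 63.7% of all peaks), and every KLF peak had a DRACH match (98.3% of all peaks).

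**Figure D2:**
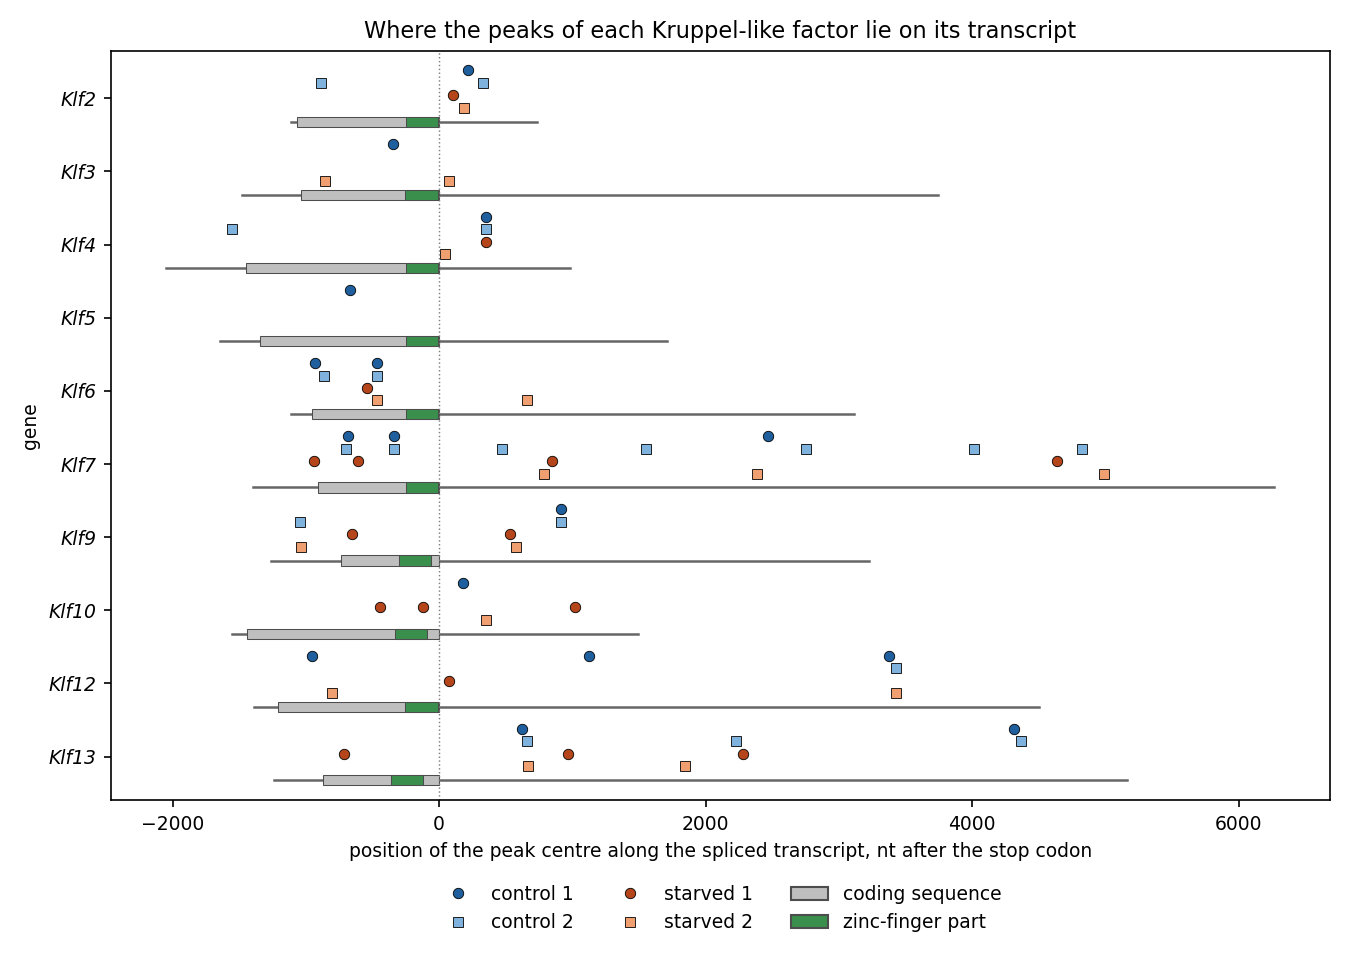
The x axis gives the position along the spliced transcript in nt after the stop codon, each row is 1 gene, and each point is the centre of a peak in 1 library, with coding sequence in grey and the zinc-finger part in green. Klf7 and Klf13 peaks are spread along their long 3′ UTRs, while Klf2 and Klf4 peaks called in all 4 libraries sit within 355 nt after the stop codon.

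The paralogs share the zinc-finger part, which allowed their peaks to be compared on the same element. Each of the 10 proteins had 3 fingers over 81 residues, coded by 243 nt that end 3 nt before the stop codon in Klf2, Klf4, Klf6 and Klf7, 6 nt in Klf5, 9 nt in Klf3 and Klf12, 57 nt in Klf9, 87 nt in Klf10 and 117 nt in Klf13. In all 10 genes an intron split this part after nt 73; Klf6 and Klf7 shared a further split into 124 and 46 nt, and Klf5 a further split after nt 13. Klf6 and Klf7 were the most alike, with 95.1% identical residues and 81.1% identical nt in the fingers. Over 45 pairs, identity ranged from 60.5% to 95.1% for residues and from 57.2% to 81.1% for nt, and the longest shared run was 26 nt, in Klf6 and Klf7. Some peak of every gene touched finger-coding sequence, 24 peaks in 12 regions, but coverage ranged from 13 nt in Klf5 to 170 nt, the whole last-exon part, in Klf3, Klf4, Klf9 and Klf10. Only 11 peaks, on 5 genes, covered more than 81 of these 243 nt. The stop codon lay under 15 peaks of 6 genes, with 4 each for Klf2 and Klf4. A long peak can span the stop codon with its centre well away, so this count exceeds that of peaks centred near it. Klf2 and Klf4 had such a peak in every library, and Klf10 in every library but control 2. Those of Klf3, Klf9 and Klf12 were in starved libraries alone, a contrast that was not tested. Shares over all peaks were not computed for these overlaps.

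Of the 30 regions 5 had a peak in all 4 libraries (16.7%; 10.7% of all regions did), 8 in 3, 3 in 2 and 14 in 1 library (56.2% of all regions were in 1 library). Klf2, Klf4, Klf6, Klf9 and Klf13 had 1 each of the regions in all 4 libraries. Each library had 3 or 4 KLF regions that no other library had. Control 1 lacked 4 regions that the other 3 libraries shared, starved 1 lacked 2, and control 2 and starved 2 lacked 1 each. A missing peak shows only that none was called, since depth is unknown.

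Klf2, a flow-responsive regulator best known from endothelium and lymphocytes, had its region at chr8:72320838-72321656 in the last exon, exon 3. It began in the finger-coding part, crossed the stop codon and ran into the 3′ UTR, and the peak started at the same base in all 4 libraries. Its fold enrichment was 16.45 in control 1, 18.6 in control 2, 14.4 in starved 1 and 61.8 in starved 2. The control values lay between the starved ones, so the groups overlapped, and starved 2 stood far above the other 3. The log2 difference, starved minus control, was 0.77 ± 1.05 (SE, 2 libraries per group), with p = 1 in an exact permutation test of both sides. Without starved 2 the difference was −0.28.

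Klf4, one of the factors used to reprogram fibroblasts to pluripotency, had its region at chr4:55527240-55528300 in exon 5, the last exon, and it covered the last 170 nt of the finger part, the stop codon and most of the 3′ UTR. The peak was 1060 bp long in control 1, 1061 bp in control 2 and in starved 1, but 436 bp in starved 2. In starved 2 it was centred 43 nt after the stop codon and ended earlier in the 3′ UTR. The fold enrichment was 11.9 in control 1, 17.1 in control 2, 10.1 in starved 1 and 12.8 in starved 2. Starved 2 lay between the control values, and the log2 difference was −0.33 ± 0.31 (SE; exact permutation, p = 0.667, n = 2 per group). Klf4 had the closest starved replicates of the 5 regions, 0.35 apart on the log2 scale.

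Klf6, an activator induced by injury and serum, had its region at chr13:5864768-5865344, in the coding sequence of exon 2 up to the exon's end. The fold enrichment was 5.53 in control 1, 7.53 in control 2, 7.59 in starved 1 and 17.9 in starved 2. Both starved values lay above both control values, though 7.53 and 7.59 nearly met. The log2 difference was 0.85 ± 0.66 (SE; exact permutation, p = 0.333, the smallest p that 2 against 2 allows, n = 2 per group), with a Benjamini-Hochberg adjusted p of 0.815 over 2257 regions. After each library was centred on its median over all regions in 4 libraries, the Klf6 groups overlapped. Its difference was 0.23 without starved 2 and 1.47 without starved 1.

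Klf9, a glucocorticoid- and thyroid hormone-induced repressor, had the highest mean enrichment of the 5 at chr19:23164683-23166204 in exon 2. The fold enrichment was 58.8 in control 1, 44.1 in control 2, 23.4 in starved 1 and 57.1 in starved 2. Starved 1 was the low value and starved 2 lay between the controls, with a log2 difference of −0.48 ± 0.68 (SE; exact permutation, p = 0.667, n = 2 per group). Without starved 1 it was 0.17. The peak's extent also differed: 382 and 379 bp in control 1 and 2, against 1522 and 1434 bp in starved 1 and 2. Both starved peaks ran from finger-coding sequence in exon 2 over the stop codon into the 3′ UTR, and both control peaks lay near their 3′ end, centred 915 and 918 nt after the stop codon.

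Klf13, a repressor and activator known from T cells and heart, had its region at chr7:63889950-63891474, in the 3′ UTR in exon 2. The fold enrichment was 7.99 in control 1, 3.76 in control 2, 26.9 in starved 1 and 5.54 in starved 2. Starved 1 was high and starved 2 lay between the controls. The log2 difference was 1.16 ± 1.26 (SE; exact permutation, p = 0.667, n = 2 per group), and without starved 1 it was 0.015. The control 2 peak had a score of 99.04 and a false discovery rate of 52.96%, and the starved 2 peak a rate of 59.65%. At a fold enrichment of at least 4, or a score of at least 100, this region was no longer in all 4 libraries.

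**Figure D3:**
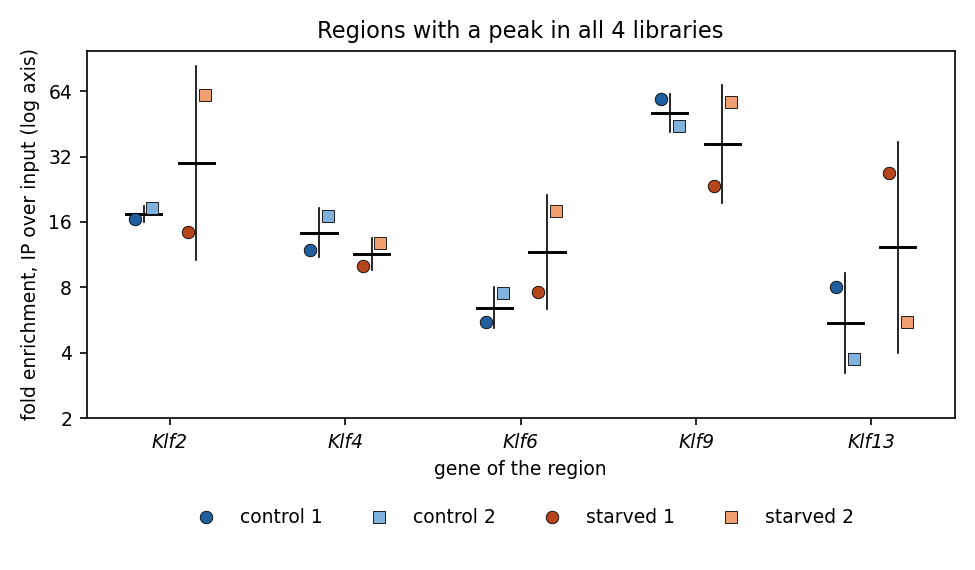
For each KLF region with a peak in all 4 libraries, points give the fold enrichment of IP over input per library on a logarithmic y axis, horizontal bars the mean of the log2 values per group and vertical lines its SD (n = 2). The groups overlap in all but Klf6, and 1 starved library stands apart in Klf2 (61.8 against 14.4) and in Klf13 (26.9 against 5.54).

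Across the 5 regions, both starved fold enrichments were above both control values in 1 (22.9% of all 2257 regions in 4 libraries were) and below both in 0 (18.0% of all were). After centring, 0 were above and 1, Klf4, was below, where the shares of all regions were 18.1% and 23.4%. The median log2 difference was 0.77 for the KLF regions and 0.10 for all, or 0.56 and −0.11 after centring, and without starved 2 the KLF median was −0.28. The 5 differences stood at the 28.3 to 85.0 percentiles of all 2257. Replicates of the KLF regions differed by a median of 0.45 on the log2 scale in control and 1.29 in starved cells, against 0.70 and 0.84 over all regions. By the exact permutation test with Benjamini-Hochberg adjustment, 0 of 2257 regions passed at 0.05 (0.0%), and none could be under 0.05 unadjusted with 2 against 2.

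**Figure D4:**
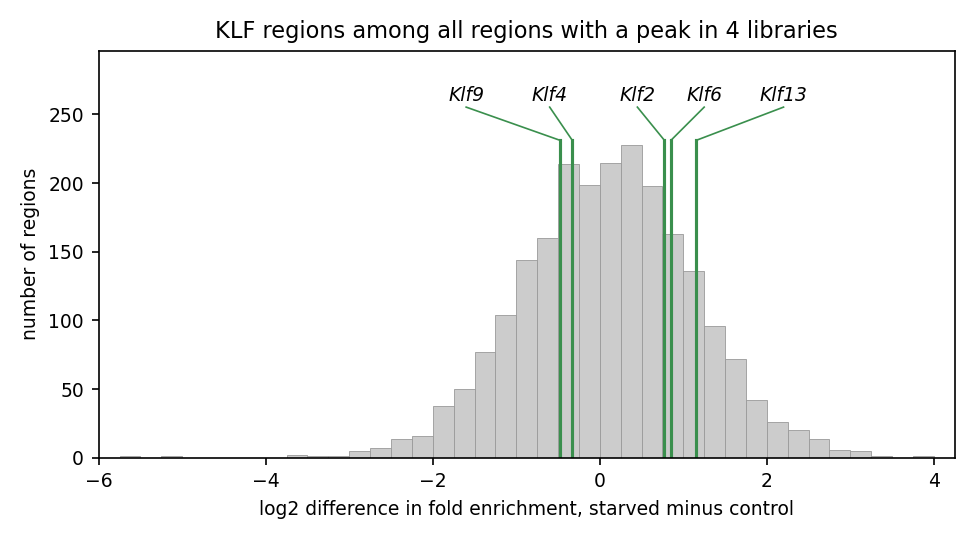
Grey bars count all 2257 regions with a peak in 4 libraries by their log2 difference in fold enrichment, starved minus control, and green lines mark the 5 KLF regions. Klf9 (−0.48) and Klf4 (−0.33) lie left of 0 and Klf2 (0.77), Klf6 (0.85) and Klf13 (1.16) right of it, all within the bulk of the bars.

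The length of sequence covered by peaks was compared after the values were seen. Both starved lengths exceeded both control lengths in 1 of the 5 regions, Klf9 (15.8% of all regions in 4 libraries), and both were below in 1, Klf2 (14.7% of all), with 591 and 819 bp in control and 370 and 530 bp in starved cells.

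Replicated presence in one group only was rare, among KLF regions as among all regions. KLF regions with a peak in both control libraries and no starved library numbered 2 of 30 (6.67%; 4.15% of all regions), and regions in both starved libraries alone numbered 0 (3.2% of all regions). The Klf6 region of this kind lay in the coding sequence of exon 1, at chr13:5861489-5861842, with fold enrichments of 6.69 in control 1 and 10.4 in control 2. The Klf13 region lay far down the 3′ UTR, at chr7:63886547-63887733, with 3.48 in control 1 and 10.4 in control 2. Neither kept its pattern among peaks with a false discovery rate under 20%, and the Klf13 region lost it at a fold enrichment of at least 4. So Klf6 and Klf13 each held a region in all 4 libraries and another in control only.

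Among the 8 regions called in 3 libraries, Klf7 held 4, and their values are given without a test because a library is missing from each. In the 3′ UTR nearest the stop codon, chr1:64034459-64035664, the fold enrichment was 13.2 in control 2, 27.96 in starved 1 and 26.6 in starved 2. At chr1:64032642-64033537 it was 8.16 in control 1, 12.1 in control 2 and 24.9 in starved 2. At chr1:64030537-64031265, farthest from the stop codon, it was 5.37 in control 2, 9.62 in starved 1 and 11.2 in starved 2. The coding region of exon 2, chr1:64078705-64079334, had 5.18 in control 1, 13.1 in control 2 and 23.8 in starved 1. In all 4 of these Klf7 regions each starved value called was above each control value called, though the joined peaks did not always lie at the same place. At chr1:64030537-64031265 the centres lay 4987 nt after the stop codon in starved 2, 4825 in control 2 and 4635 in starved 1. In the exon 2 region control 1 had centres at −336 and −684 nt relative to the stop codon. Control 2 had centres there at −335 and −702, and starved 1 at −606.

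The other 4 regions in 3 libraries were mixed. In Klf12, a CtBP-binding repressor, the region at chr14:99871515-99871948 in the 3′ UTR had 7.89 in control 1, 9.0 in control 2 and 25.9 in starved 2. In Klf10, an early gene of TGF-beta signalling, the region at chr15:38294579-38296164 over the stop codon and 3′ UTR had 5.47 in control 1, 12.9 in starved 1 and 5.62 in starved 2, with the 12.9 peak lying clear of the control peak. The Klf9 region of exon 1, chr19:23141241-23142232, had 43.2 in control 2, 5.78 in starved 1 and 27.7 in starved 2, and here control was above both starved values. Klf13 at chr7:63888769-63889843 in the 3′ UTR had 14.1 in control 2, 10.1 in starved 1 and 3.39 in starved 2, the same order. Counted after the values were seen, every starved value was above every control value in 6 of the 8 regions (41.6% of all 2579 regions in 3 libraries) and below in 2 (26.3% of all). After centring of the libraries these were 5, all 4 of Klf7 and that of Klf12 (35.3% of all), and 2 (32.1% of all).

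The largest KLF enrichment came from a region in 2 libraries, in the coding sequence of Klf12 exon 4 at chr14:100022700-100023168, with 10.5 in control 1 and 81.8 in starved 2. Klf12 also had 25.5 near its stop codon in starved 1 alone. Klf3, a CtBP-binding repressor of fat and blood cell genes, had 3 regions, each in 1 library, at 8.21 in control 1 and 5.68 and 7.0 in starved 2.

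Peaks on related genes were counted in lists of named genes. In the whole series 9779 genes had a peak. The share of all genes with a peak was not computed, so the counts of listed genes with a peak have no background beside them. Of 7 other KLF genes Klf11 and Klf16 had a peak, with 0 regions in all 4 libraries. Of 9 Sp genes, the closest relatives of the family, 5 had a peak, and both regions in all 4 libraries had both starved values above both control values (2 of 2, against 22.9% of all regions in 4 libraries), though neither did after centring (18.1% of all). Sp1 had 5.31 and 11.8 in control and 25.4 and 13.5 in starved cells, and Sp3 had 3.06 and 6.02 against 7.22 and 9.57. Sp2 had a region in the starved libraries alone, with 16.9 and 23.7. Of 10 KLF co-regulators 9 had a peak, with 4 regions in all 4 libraries, of which 1, in the acetyltransferase gene Crebbp, had both starved values above both control values, before and after centring (1 of 4, against the same shares of all). The related acetyltransferase gene Ep300 had a starved-only region (38.5 and 5.24), and the corepressor gene Sin3b a control-only region (5.37 and 17.8). All 7 genes of the MEK5-ERK5-MEF2 pathway, known to drive Klf2 and Klf4, had a peak, and Map3k2 had a starved-only region (37.6 and 11.6). All 7 ligase and F-box genes had a peak as well, with 1 starved-only region in Smurf1 (3.87 and 4.16). As a check of the cell label, 8 of 12 fibroblast marker genes had a peak, against 2 of 4 epithelial, 1 of 3 endothelial, 1 of 3 immune and 0 of 3 pluripotent marker genes, but peaks do not give RNA levels. The fibroblast list had 2 control-only regions and 1 starved-only region, and the epithelial list 1 control-only region. All lists together held 5 starved-only regions of 104 (4.81%, against 3.2% of all regions) and 4 control-only regions (3.85%, against 4.15% of all regions).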

How the data were processed

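MeRIP-seq had been done on poly(A) RNA of MEFs with an m6A antibody and strand-specific libraries. After adapter trimming (Cutadapt), the authors mapped reads to mm10 using HISAT2 2.0.4. Each IP library was set against its own input in MACS2, and peaks on mRNA exons were retained. The lists carry column names of an earlier MACS series, so the caller, and with it how the false discovery rate and score were computed, is uncertain. Replicates were not pooled for these lists. The deposited fold enrichment is a ratio to local input, with no scaling between libraries. The deposited score is a negative multiple of log10 of the p-value, and the deposited false discovery rate is a percent. A deposited table of differential sites holds only the authors' own comparison and was not used. Reads and depths are not given in the files used here, so no counting error could be computed, and a deeper library yields more peaks at equal enrichment. Peak edges coincided with an exon end for 35.8% of KLF peaks and 49.6% of all peaks. 0 columns were left unmapped.

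Starts were counted from 1. A library's value in a region was its highest peak. Peaks were placed on the transcript with the longest coding sequence (GENCODE M21), sequence was read from RefSeq GRCm38.p6, and motifs were sought on the transcript strand within 100 nt of the centre. All members were described; regions in all 4 libraries or replicated in one group were given in full. The members and lists were chosen with earlier results of these data known. Groups followed the sample titles. Single regions were compared on log2 fold enrichment by a two-sided exact permutation test, with Benjamini-Hochberg adjustment over all regions in 4 libraries. Alternatives covered peak filters, list length, gene assignment, overlap, centring, stop window, motif, replicate number and each library left out. Code ran under Python 3.11.15 (pandas 2.3.3, numpy 2.4.6, matplotlib 3.10.9), with scipy 1.17.1 for correlations, and the region and test code was first tested on simulated data.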

Additional observations from a re-analysis of the deposited data

How the results depend on the processing

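Of 77 values recomputed with all 4 libraries, 67 were counted as unchanged. A share, median or difference had to stay within the spread, and a count within 1.5 times the reported one. The log2 difference of a single region only had to keep its sign. Some of the 67 could not move. Assignment by exon overlap renamed no peak, and the replicate number as a block leaves differences of means as they are. The difference in KLF peaks became 1 with lists of equal length. When peaks were joined only at an overlap of 50% of the shorter peak, control-only regions numbered 3. At a fold enrichment of at least 4, control-only regions numbered 1 and the median log2 difference was 0.22, which it also was at a score of at least 100. Both filters dropped the Klf13 region from those in all 4 libraries. At a false discovery rate under 20%, 3 regions were in all 4 libraries, with those of Klf6 and Klf13 lost, and 0 in control only. Centring gave 0 regions higher and 1 lower. The stop codon share was 10.45% with a 200 nt window, and the motif share was 100% with DRACH. The cause of these moves was not tested, except that the filters leave fewer peaks and the window and motif are wider by construction.

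Leaving out each library in turn moved the difference in peaks between −3 and 0, the median log2 difference between −0.28 and 0.63, and the 3′ UTR share between 56.25% and 60.8%. The coding share ran from 27.45% to 35.3%, the stop codon share from 1.96% to 6.25%, the 5′ UTR share from 4.17% to 7.84%, and the GGAC share from 74.5% to 81.25%. Leaving out libraries for the counts of regions was chosen after seeing the data. Then 6 to 9 regions were in every library kept, 1 to 4 in starved only, 3 to 6 in control only, 1 to 2 higher and 0 to 3 lower, which fewer libraries widen by construction. Of single regions, the log2 difference of Klf2 ran from −0.28 without starved 2 to 1.82 without starved 1, and that of Klf9 from −1.12 without starved 2 to 0.17 without starved 1, each turning sign; the differences of the other 3 kept their sign.

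Same-numbered replicates did not deviate together (r = −0.017 over 2257 regions). With the replicate number as a block, the difference in peaks (−1.5) and the median log2 difference (0.77) are the same by construction. No call could change, since the smallest sign-flip p for 2 pairs is 0.5. Depth is unknown, so whether a peak missing from a library reflects reads or methylation cannot be told apart.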
